A study of Mus musculus with 32 samples.

Results

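The genes described here encode the enzymes that turn farnesyl diphosphate into squalene, squalene into lanosterol, and lanosterol into sterols that have lost their methyl groups at C14 and C4. They are Fdft1, Sqle, Lss, Cyp51, Tm7sf2, Lbr, Msmo1, Nsdhl and Hsd17b7. They were chosen by gene symbol, with earlier results of these data known. The shares of all genes given beside member counts are therefore descriptions and not tests of the list. All 9 of the 9 symbols were found among the 55291 symbols of the deposited count tables. All 9 passed the filter on low counts in every comparison.

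Transcripts were counted in 32 libraries of whole brain from C57BL/6J mice, either wild type (WT, Dhcr7+/+) or lacking Dhcr7 (KO, Dhcr7-/-). The stages are named by embryonic day (E12.5, then E14.5, then E16.5) and the day of birth (PND0), and each of the 8 groups has 4 libraries. The labels name no other allele and no treatment, and give neither litter nor sex. Nothing in the labels says that the 4 libraries of a group came from separate litters, so the p-values measure the spread between these samples.

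Cholesterol synthesis runs from acetyl-CoA through mevalonate and squalene to lanosterol, and then through demethylation, isomerisation and reduction to cholesterol. Dhcr7 carries out a reduction at the end of this route, and in its absence 7-dehydrocholesterol accumulates. The developing brain makes most of its own cholesterol behind the blood-brain barrier, and transcription of most of the pathway's genes is under the control of SREBP factors, which are released when membrane sterol is low. Lbr stands apart in having a second role, as a receptor for the nuclear lamina and heterochromatin in the inner nuclear membrane.

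Sequence from the promoter windows of 4 members is shown because the genes share a pathway, while Lbr departed from the others in its pattern across the samples. Of the 4, 3 were higher in KO brains on average, and Lbr did not pass that test. The sequences are from RefSeq on build GRCm38.p6, read on the gene's own strand from 5′ to 3′, and are the longest stretch of each promoter window that holds no exon of the GENCODE M21 annotation. Capitals mark the NF-Y box CCAAT and the GC box GGGCGG on either strand. The Lss stretch is chr10:76531355-76531587 and the Nsdhl stretch chrX:72918412-72918556, both on the plus strand. The Hsd17b7 stretch is chr1:169969242-169969408 and the Lbr stretch chr1:181842380-181842651, both on the minus strand. The Lbr stretch lies inside the Lbr gene of GENCODE M21 (181815335 to 181843046), between its exons. The Lbr and Nsdhl stretches run past the RefSeq start, so they are not wholly upstream.
Lss: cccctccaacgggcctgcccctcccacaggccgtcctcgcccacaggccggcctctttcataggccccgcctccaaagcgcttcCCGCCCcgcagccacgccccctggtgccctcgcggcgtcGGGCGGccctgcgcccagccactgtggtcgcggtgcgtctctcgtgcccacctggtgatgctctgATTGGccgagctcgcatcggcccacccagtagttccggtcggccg
Nsdhl: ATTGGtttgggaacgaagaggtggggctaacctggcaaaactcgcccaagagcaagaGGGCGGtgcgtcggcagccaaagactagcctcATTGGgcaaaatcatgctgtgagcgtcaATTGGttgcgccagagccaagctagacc
Hsd17b7: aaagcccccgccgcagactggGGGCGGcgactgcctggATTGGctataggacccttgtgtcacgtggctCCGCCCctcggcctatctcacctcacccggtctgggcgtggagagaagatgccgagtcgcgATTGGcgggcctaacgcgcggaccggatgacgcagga
Lbr: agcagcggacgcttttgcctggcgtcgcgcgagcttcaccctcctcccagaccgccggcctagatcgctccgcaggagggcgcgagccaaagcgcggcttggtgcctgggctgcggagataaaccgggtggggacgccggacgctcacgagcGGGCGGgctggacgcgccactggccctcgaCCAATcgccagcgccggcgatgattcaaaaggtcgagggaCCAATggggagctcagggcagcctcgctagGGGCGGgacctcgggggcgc

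Promoter windows of 300 bases, from 250 before to 50 after the RefSeq start, were found for 7 of the 9 members (Lss, Cyp51, Tm7sf2, Lbr, Msmo1, Nsdhl and Hsd17b7). The NF-Y box CCAAT was found in all 7 windows, against 37.4% of the 32851 windows of the same length in the RefSeq table, and the GC box GGGCGG also in all 7, against 35.7%. The 7 windows were 59.3 to 72.0% G and C, and the windows set against them were not matched for this. Msmo1 held 3 NF-Y boxes, Nsdhl 4, Hsd17b7 3 and Lbr 2, and Lss, Cyp51 and Tm7sf2 held 1 each. No base of the Tm7sf2 window lay outside the exons of GENCODE M21, so its boxes lay in annotated exon. The longest stretch outside exons in the Msmo1 window was 36 bases, and it held neither kind of box. Of the 7, Hsd17b7 alone held the E-box CACGTG, which 7.15% of all windows held. The sterol response element core TCACNCCAC was in none of the 7 windows and in 1.24% of all windows. Among enzymes from acetyl-CoA to farnesyl diphosphate it was found for 1 of 6 genes with a window. Among sterol enzymes after the members it was found for 0 of 2. No other form of the element was searched, so its absence does not show that a window lacks a sterol response element. Both strands were searched, no motif contains another, and a match is a run of letters and not a shown binding site. The Lbr window held both kinds of box, as did the windows found for members that were higher in KO brains on average. For Fdft1 and Sqle, also higher, no window was found.

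Libraries held 13.9 to 28.3 M counts each, and the 3 counts that a count of 0 allows came to 0.106 to 0.216 CPM (counts scaled to a library of fixed size). The lowest count of any member in any library was 337, for Hsd17b7. In 5 of the 72 groups (9 members in 8 groups) the spread between libraries was no larger than the counting error of the mean count, for Tm7sf2 and Msmo1 in E16.5 KO, Nsdhl in E14.5 and E16.5 WT and Hsd17b7 in E14.5 KO. Levels below are CPM scaled by TMM over all 32 libraries. Dhcr7, the targeted gene, measured 58.8 to 104 CPM in WT and 11.7 to 26.6 CPM in KO libraries, with no overlap at any stage. The 5 neuronal markers were detected in every group and summed to 1948 to 5799 CPM. A ribosomal RNA gene took 0.191 to 5.64% of the counts, most in E12.5 KO replicate 1. The next highest was E16.5 WT replicate 1 with 3.75%. At E14.5 it took 1.04 to 1.17% in WT and 0.869 to 2.68% in KO. In whole brain, fewer cells that express a gene and less RNA per cell cannot be told apart. Each stage is its own deposited table, so stage and any batch of library preparation cannot be told apart.

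In the KO brains, all members had a positive difference from WT at all 4 stages, and its median over the members was 0.52, 0.36, 0.25 and 0.33 on the log2 scale in order of stage. The median over all genes tested was between -0.00058 and 0.0031. When the KO difference was averaged over the 4 stages in a single fit of the 32 libraries, 8 of the 9 members were higher in KO, and Lbr was the exception. For that contrast 0.399% of all 19541 genes tested were called higher. The averaged log2 fold changes were 0.45 for Fdft1 (SE 0.05, adjusted p = 1.065e-06), 0.41 for Sqle, 0.38 for Lss, 0.35 for Cyp51, 0.34 for Tm7sf2, 0.44 for Msmo1, 0.44 for Nsdhl and 0.28 for Hsd17b7 (adjusted p = 0.0368). For Lbr it was 0.08 (SE 0.05, adjusted p = 0.541). All p-values are from edgeR's quasi-likelihood test with Benjamini-Hochberg adjustment over all genes tested, with a threshold of 0.05. The Hsd17b7 call was lost in 18 of the 32 fits that left out 1 library, where its adjusted p reached 0.0711, and the other 7 calls held in all 32.

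Whether the KO difference itself varied with stage was tested as an interaction, and by edgeR 0 of the 9 members passed, against 0.0256% of all genes. Without E12.5 KO replicate 1 that share was 3.98% (797 genes in place of 5), still with 0 members, and Lss came to an adjusted p of 0.0501. The smallest member p by edgeR was that of Msmo1 (adjusted p = 0.220), followed by Lss (adjusted p = 0.350), and these were the 2 members with an unadjusted p under 0.05. No library left out and no alternative run changed this count of 0. Differences in the number of calls between the stages are therefore not shown to be differences in the KO effect.

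At E12.5 the member differences were the widest, from 0.09 for Lbr to 0.75 for Msmo1, and 0 of the 9 passed the threshold. Of all 16948 genes, 0.00590% were called higher. Unadjusted, 8 of the 9 members had a p under 0.05, against 4.70% of all genes. In the same 8 every KO library lay above every WT library, which held for 1.70% of all genes. DESeq2 called 6 of the members (Fdft1, Sqle, Lss, Cyp51, Msmo1 and Nsdhl), with adjusted p from 0.000509 to 0.0162. A single fit over the 32 libraries also called 6, the same ones. Of all genes, in either direction, DESeq2 called 30 of 22998 and the single fit 52 of 19541. Between libraries at this stage, summed markers of 5 meningeal and connective tissue genes ranged from 1409 to 3087 CPM in WT and from 659 to 2696 CPM in KO, and those of 4 skeletal muscle genes from 12.7 to 129 and from 2.89 to 19.3 CPM. Erythroid markers ranged from 1619 to 8421 and from 1363 to 4341 CPM. Neuronal markers (5 genes) ranged from 1948 to 3487 CPM in WT and from 3058 to 3542 CPM in KO, neural progenitor markers (5 genes) from 999 to 1510.4 and from 1286 to 1666 CPM, and skin markers (3 genes) from 11.6 to 114 and from 12.1 to 52.8 CPM. None of these markers passed the test at E12.5, and their part in the member values was not tested.

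At E14.5, 7 of the 9 members were higher in KO, against 0.219% of all 17837 genes. The 7 were Fdft1, Sqle, Lss, Cyp51, Msmo1, Nsdhl and Hsd17b7, and in the same 7 the groups did not overlap, against 2.18% of all genes. The 2 proteins with C14 reductase activity, Tm7sf2 and Lbr, did not pass. Leaving out any of the 8 libraries kept the count at 7. In the fit of all 32 libraries, which shares 1 estimate of spread over the stages, the fold changes were alike but the count was 0, with adjusted p from 0.401 to 1 for the 7. Of the cell type marker lists, summed oligodendrocyte lineage markers (5 genes, 1 of them called) were 113 to 119 CPM in WT and 106 to 111 CPM in KO, and their part in the member values was not tested.

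At E16.5 Sqle alone was higher in KO, while 0.0289% of all 17328 genes were called higher. In 8 of the 9 members, all but Lbr, the groups did not overlap, against 2.87% of all genes. Sqle lost its call without any 1 of the 4 KO libraries, without WT replicate 3 and without WT replicate 4, with adjusted p from 0.0879 to 0.215. DESeq2 called 4 members (Fdft1, Sqle, Lss and Cyp51). Of all genes it called 168, in either direction, among the 3407 to which it gave an adjusted p. It gave none for Tm7sf2, Lbr, Nsdhl and Hsd17b7. Summed neural progenitor markers (5 genes, none called) were 908 to 1022 CPM in WT and 834 to 899.8 CPM in KO. Erythroid markers (6 genes, none called) were 667 to 1427 and 533 to 772 CPM. The part of these markers in the member values was not tested.

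At PND0 Tm7sf2 and Nsdhl were higher in KO, while 0.402% of all 17420 genes were called higher. The groups did not overlap in 4 members (Fdft1, Sqle, Tm7sf2 and Nsdhl), against 5.43% of all genes. Tm7sf2 lost its call without WT replicate 1 or 3 or KO replicate 1 or 2 (adjusted p 0.0589 to 0.0826), and Nsdhl without WT replicate 1, 2 or 3 or KO replicate 1, 2 or 4 (0.0550 to 0.0898). The ribosomal RNA gene took 1.80 to 2.78% of the counts in WT, most in replicate 4, and 1.16 to 2.09% in KO. With it as a covariate, the 2 differences were 0.29 and 0.40 and neither passed (adjusted p = 0.755 for both). Without filtering on low counts 6 members passed, against 1091 of all 33525 genes in either direction. With DESeq2 4 passed, against 921 of the 12809 genes to which it gave an adjusted p. Summed oligodendrocyte lineage markers (5 genes, none called) were 283 to 317 CPM in WT and 253 to 281 CPM in KO, without overlap. Choroid plexus markers (4 genes, none called) were 297 to 599 CPM in WT and 598 to 951 CPM in KO. Erythroid markers (6 genes, of which 5 were tested and none called, Hbb-y at 0 in every KO library) were 200.2 to 267 and 234 to 2293 CPM. Their part in the member values was not tested.

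**Figure D1:**
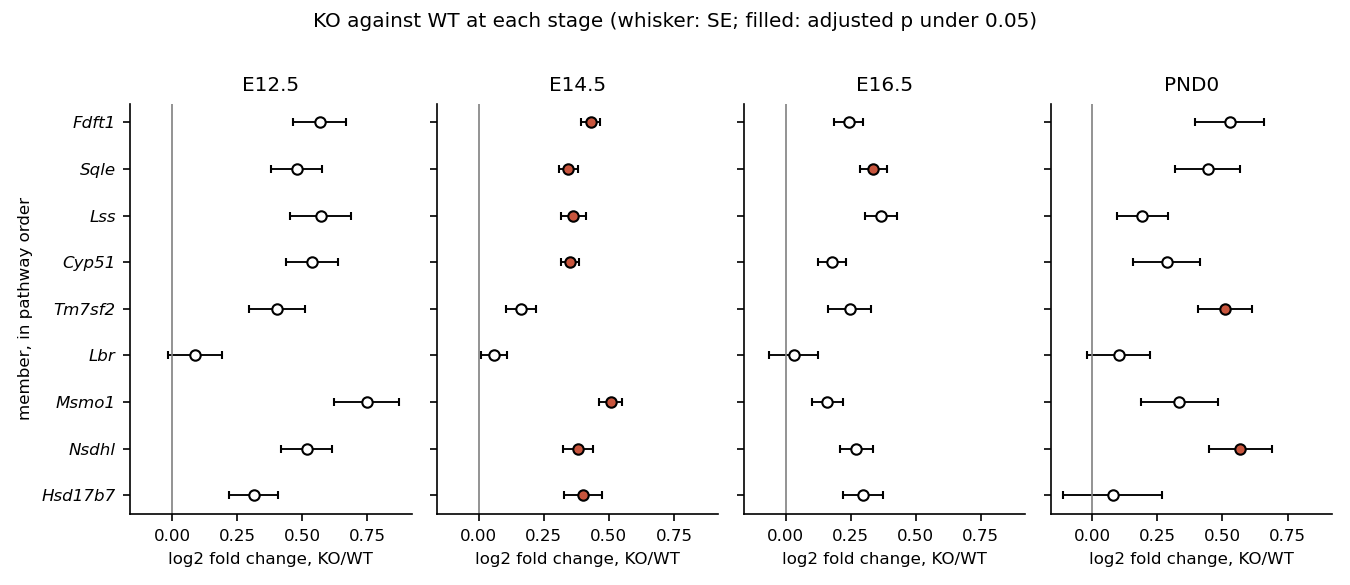
Log2 fold change of KO against WT (horizontal axis) for each member in pathway order (vertical axis) at each of the 4 stages, with the SE as whiskers and filled points where the adjusted p was under 0.05. All points lie to the right of 0, 7 are filled at E14.5, and Lbr lies nearest to 0 at the embryonic stages.

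The route begins with Fdft1, squalene synthase, which joins a pair of farnesyl diphosphates and so commits them to sterols (ENSMUSG00000021273.10, chromosome 14, 63145150 to 63179578, minus strand of GRCm38). At E12.5 Fdft1 measured 116, 143, 154 and 151 CPM in WT replicates 1 to 4 and 217, 222, 223 and 188 CPM in KO replicates 1 to 4. At E14.5 the WT libraries measured 135, 142, 144 and 142 CPM and the KO libraries 191, 198, 183 and 186 CPM. Every KO library was above every WT library at both stages, and E12.5 KO replicate 4 was the lowest of its group. The log2 fold changes were 0.57 (SE 0.10, adjusted p = 0.528) and 0.43 (SE 0.04, adjusted p = 2.82e-11). At E16.5 Fdft1 ranged from 174 to 199 CPM in WT and from 208 to 229 CPM in KO, a difference of 0.24 (adjusted p = 0.237). At PND0 it was 173, 178, 175 and 113 CPM in WT and 236, 225, 197 and 261 CPM in KO, a difference of 0.53 (adjusted p = 0.0686). WT replicate 4 stood far below the other WT libraries there. In WT, Fdft1 held near 141 CPM at E12.5 and E14.5 and then rose to 183 ± 11.6 CPM (SD, n = 4) at E16.5 (log2 fold change 0.39, adjusted p = 8.19e-06). At PND0 the WT mean was 160 ± 31.5 CPM (-0.26 from E16.5, adjusted p = 0.0930). This last step passed without a filter (adjusted p = 0.00299) and with the replicate block (adjusted p = 0.0493). The Fdft1 exons share 774 nt with Ctsb on the opposite strand, and Gm6781, an annotated processed pseudogene with 97.4% identity over 1249 nt, had 0 to 15 counts per library. How the authors' counting treated such shared reads is not given in the sources used here.

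Sqle, squalene epoxidase, adds the oxygen that allows squalene to be cyclised and is known as a flux-controlling step of the route (ENSMUSG00000022351.14, chromosome 15, 59315077 to 59331192, plus strand). At E12.5 it measured 147, 170.5, 166 and 178 CPM in WT and 249, 244, 247 and 198 CPM in KO. At E14.5 it measured 154, 167, 163 and 171 CPM in WT and 207, 218, 199 and 207 CPM in KO. Sqle groups did not overlap at these or later stages. At E16.5 the WT libraries held 171, 158, 154 and 151 CPM and the KO libraries 199.6, 207, 201 and 197 CPM. At PND0 they held 225, 235, 236 and 151 CPM in WT and 296, 269, 260.5 and 323 CPM in KO. The lowest PND0 library was again WT replicate 4. Sqle log2 fold changes were 0.48 (SE 0.10, adjusted p = 0.717), 0.34 (SE 0.04, adjusted p = 1.49e-08), 0.34 (SE 0.05, adjusted p = 0.0340) and 0.44 (SE 0.13, adjusted p = 0.0914) in order of stage. In WT, Sqle was level from E12.5 to E16.5, at 158 to 165.2 CPM, and rose to 212 ± 41.0 CPM at PND0 (log2 fold change 0.36, adjusted p = 0.0222). That rise lost its call without E16.5 WT replicate 3 or 4 or PND0 WT replicate 1, 2 or 3 (adjusted p 0.0588 to 0.0672).

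Lss, lanosterol synthase, folds oxidosqualene into the first sterol of the route (ENSMUSG00000033105.12, chromosome 10, 76531588 to 76557138, plus strand). At E14.5 Lss measured 81.7, 95.5, 80.7 and 89.3 CPM in WT and 119, 113, 108 and 106 CPM in KO, with no overlap. Its differences in order of stage were 0.57 (SE 0.12, adjusted p = 0.723), 0.36 (SE 0.05, adjusted p = 5.55e-06), 0.37 (SE 0.06, adjusted p = 0.0599) and 0.19 (SE 0.10, adjusted p = 0.317). At E12.5 the Lss test passed without KO replicate 1 (0.66, adjusted p = 0.0402) and with the ribosomal RNA gene as a covariate (0.65, adjusted p = 0.0274). At PND0 the Lss groups overlapped, with 104, 109, 131 and 89.95 CPM in WT and 118, 126, 129 and 121 CPM in KO. WT replicate 3 was the highest library of the 8. In WT, Lss rose from 83.5 ± 4.599 CPM at E16.5 to 109 ± 17.2 CPM at PND0 (log2 fold change 0.32, adjusted p = 0.0128), and its earlier steps did not pass.

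Cyp51 encodes the cytochrome P450 that removes the C14 methyl group of lanosterol (ENSMUSG00000001467.5, chromosome 5, 4081145 to 4104746, minus strand). At E14.5 it measured 154, 164, 163 and 164 CPM in WT and 208, 211, 204 and 200.4 CPM in KO. The 2 groups stood well apart, with WT replicate 1 below a tight set of the other WT libraries. The Cyp51 differences in order of stage were 0.54 (SE 0.10, adjusted p = 0.589), 0.35 (SE 0.03, adjusted p = 1.75e-09), 0.18 (SE 0.05, adjusted p = 0.293) and 0.28 (SE 0.13, adjusted p = 0.272). At E16.5 the 8 libraries separated by a small margin, 174 to 197 CPM in WT against 207 to 219 CPM in KO. At PND0 Cyp51 ranged from 135 to 221 CPM in WT and from 205 to 257 CPM in KO, and the groups overlapped. In WT, Cyp51 fell from 185 ± 16.7 CPM at E12.5 to 161 ± 4.58 CPM at E14.5 (log2 fold change -0.21, adjusted p = 0.0126). It rose to 187 ± 9.99 CPM at E16.5 (0.22, adjusted p = 0.00135). In the fit of all 32 libraries neither of these WT steps passed (adjusted p = 0.0959 and 0.0786).

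Reduction of the double bond left at C14 can be carried out by the protein of Tm7sf2, in the endoplasmic reticulum, or by that of Lbr. Tm7sf2 (ENSMUSG00000024799.16, chromosome 19, 6062821 to 6068373, minus strand) measured 28.8, 33.7, 37.6 and 37.0 CPM in WT and 49.0, 47.7, 49.1 and 38.9 CPM in KO at E12.5. At E14.5 Tm7sf2 measured 41.7, 47.9, 41.9 and 44.3 CPM in WT and 46.7, 54.4, 48.3 and 46.9 CPM in KO. The Tm7sf2 groups separated at E12.5, with KO replicate 4 close to the WT libraries, and overlapped at E14.5. At E16.5 Tm7sf2 measured 50.8, 52.3, 40.7 and 41.7 CPM in WT and 56.9, 53.7, 55.2 and 55.3 CPM in KO. At PND0 it measured 52.5, 55.7, 55.9 and 40.8 CPM in WT and 74.2, 68.2, 79.0 and 69.4 CPM in KO. The KO libraries lay above all WT libraries at E16.5 and PND0. The log2 fold changes were 0.40 (SE 0.11, adjusted p = 0.875), 0.16 (SE 0.06, adjusted p = 0.330), 0.25 (SE 0.08, adjusted p = 0.310) and 0.51 (SE 0.10, adjusted p = 0.0270). Tm7sf2 shares 532 nt of exon with Vps51 on the same strand, whose log2 fold changes were 0.14, 0.11, 0.20 and 0.26 and did not pass at any stage. The part of reads from Vps51 in the Tm7sf2 values was not tested.

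Lbr (ENSMUSG00000004880.11, chromosome 1, 181815335 to 181843046, minus strand) was the member in which the KO and WT libraries overlapped at every stage. At E12.5 Lbr measured 73.6, 89.4, 71.2 and 79.7 CPM in WT and 87.4, 80.7, 95.5 and 76.4 CPM in KO. At E14.5 it measured 54.5, 51.3, 54.8 and 50.5 CPM in WT and 56.1, 53.2, 58.3 and 51.8 CPM in KO. At E16.5 it measured 29.4, 27.5, 37.0 and 31.8 CPM in WT and 31.9, 32.2, 28.9 and 35.9 CPM in KO. The KO libraries thus lay within or just above the WT range. At PND0 they were 22.1, 27.8, 27.2 and 25.3 CPM in WT and 23.2, 30.02, 29.0 and 27.6 CPM in KO. Lbr differences were 0.09 (SE 0.10), 0.06 (SE 0.05), 0.03 (SE 0.09) and 0.10 (SE 0.12), with adjusted p of 0.915, 0.817, 0.930 and 0.713. At E16.5 the sign turned to -0.02 without WT replicate 2 and to -0.03 without KO replicate 4. Across the stages in WT, Lbr fell at each step, by log2 fold changes of -0.59 (adjusted p = 0.000117), -0.74 (adjusted p = 1.19e-06) and -0.35 (adjusted p = 0.0158). From E12.5 to PND0 it fell from 78.5 ± 8.10 to 25.6 ± 2.56 CPM (-1.62, SE 0.10, adjusted p = 2.33e-07). The last step lost its call without E16.5 WT replicate 3 (adjusted p = 0.0684) or PND0 WT replicate 1 (0.0538). Lbr shares 440 nt of exon with Dnah14 on the opposite strand, which had 4 to 38 counts per library.

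Between E12.5 and PND0 in WT brains, Tm7sf2 rose (log2 fold change 0.57, adjusted p = 0.00123) and Lbr fell (-1.62, adjusted p = 2.33e-07). Of the single steps, Tm7sf2 passed only that from E12.5 to E14.5 (0.34, adjusted p = 0.00585), and its later steps were 0.08 and 0.08 (adjusted p = 0.415 and 0.561). The ratio of Tm7sf2 to Lbr CPM in WT had a geometric mean of 0.436, 0.832, 1.48 and 1.99 in order of stage. In KO brains it was 0.543, 0.893, 1.72 and 2.66. Single libraries ran from 0.377 to 0.528 in WT and from 0.509 to 0.591 in KO at E12.5, and from 1.61 to 2.37 in WT and from 2.27 to 3.20 in KO at PND0. The KO minus WT difference of the log2 ratio was 0.31, 0.10, 0.22 and 0.41. An exact two-sided permutation test gave p of 0.0857, 0.371, 0.314 and 0.0571 (adjusted over the 4 stages 0.171, 0.371, 0.371 and 0.171), where 4 against 4 libraries cannot go below 0.0286. At E12.5 the difference was 0.41 without WT replicate 3 (exact p = 0.0286). No stage passed after adjustment.

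**Figure D2:**
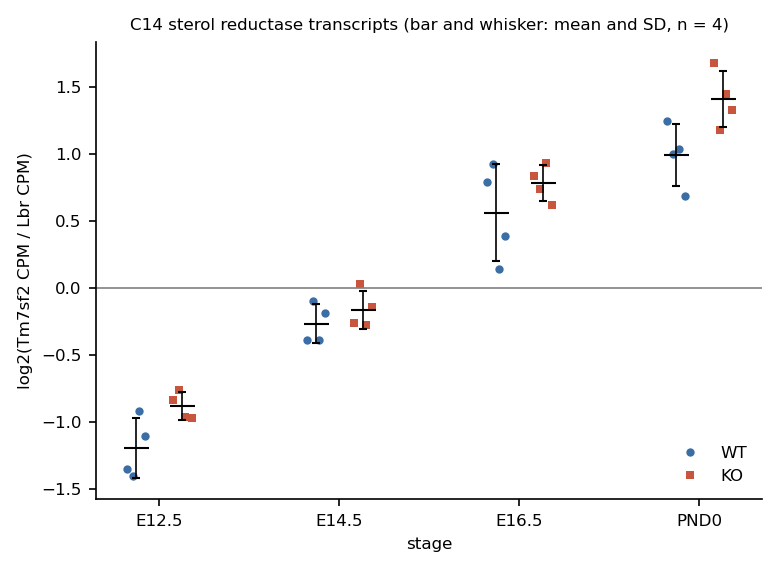
Log2 ratio of Tm7sf2 to Lbr CPM (vertical axis) by stage (horizontal axis) in each WT (circles) and KO (squares) library, with mean and SD of 4 libraries. The ratio lies below 0 in all E12.5 libraries and above 0 in all libraries of E16.5 and PND0, and the genotypes overlap at each stage. CPM are not scaled for transcript length here, so 0 does not mark equal transcript numbers.

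Removal of the C4 methyl groups starts with Msmo1, the C4 methylsterol oxidase (ENSMUSG00000031604.10, chromosome 8, 64718139 to 64733792, minus strand). At E12.5 it measured 69.7, 84.9, 85.4 and 89.0 CPM in WT and 169, 136, 146 and 113 CPM in KO. At E14.5 it measured 65.4, 69.6, 67.8 and 65.5 CPM in WT and 94.8, 94.4, 92.9 and 99.1 CPM in KO. KO replicate 1 was the highest Msmo1 library at E12.5, and at E14.5 both groups were tight and far apart. At E16.5 Msmo1 measured 91.5, 97.2, 81.4 and 91.0 CPM in WT and 100.3, 103, 102 and 100.3 CPM in KO. At PND0 it measured 109.6, 105, 106 and 66.9 CPM in WT and 125.2, 118, 100.4 and 144 CPM in KO, and the groups overlapped. The Msmo1 differences were 0.75 (SE 0.12, adjusted p = 0.395), 0.51 (SE 0.04, adjusted p = 7.21e-11), 0.16 (SE 0.06, adjusted p = 0.352) and 0.33 (SE 0.15, adjusted p = 0.266), so that Msmo1 had the largest member difference at E12.5 and E14.5 and the smallest but Lbr at E16.5. The change of this difference with stage did not pass the interaction test given above. Without PND0 WT replicate 4 the PND0 difference was 0.20 (adjusted p = 0.349). In WT, Msmo1 fell from 82.2 ± 8.60 to 67.1 ± 2.04 CPM between E12.5 and E14.5 (log2 fold change -0.31, adjusted p = 0.00347) and rose to 90.3 ± 6.56 CPM at E16.5 (0.43, adjusted p = 9.50e-06).

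Nsdhl, the X-linked C4 decarboxylase of the same complex (ENSMUSG00000031349.4, chromosome X, 72918557 to 72958514, plus strand), did not overlap between the genotypes at any stage. At E14.5 it measured 38.1, 38.6, 37.0 and 39.9 CPM in WT and 52.2, 53.9, 45.8 and 47.3 CPM in KO. At PND0 it measured 47.3, 48.5, 52.4 and 33.3 CPM in WT and 68.3, 63.5, 62.0 and 74.4 CPM in KO. The WT library nearest to the KO range at PND0 was replicate 3, and replicate 4 was the lowest. The differences in order of stage were 0.52 (SE 0.10, adjusted p = 0.589), 0.38 (SE 0.06, adjusted p = 3.84e-05), 0.27 (SE 0.06, adjusted p = 0.239) and 0.57 (SE 0.12, adjusted p = 0.0327). WT means were 37.2, 38.4, 37.3 and 45.4 CPM, and none of the WT steps passed. From E16.5 to PND0 the difference was 0.22 (adjusted p = 0.125). It passed without PND0 WT replicate 4 (0.35, adjusted p = 0.00266) and in the single fit of 32 libraries (0.28, adjusted p = 0.0185).

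Hsd17b7 reduces the ketone left at C3 during C4 demethylation, and its product is also known as an oestrogen-forming enzyme (ENSMUSG00000026675.12, chromosome 1, 169949535 to 169969241, minus strand). At E14.5 it measured 22.4, 20.96, 21.3 and 18.8 CPM in WT and 27.2, 27.3, 28.7 and 26.8 CPM in KO, without overlap. At PND0 it measured 29.8, 37.2, 41.2 and 19.4 CPM in WT and 37.6, 29.0, 30.9 and 36.6 CPM in KO. The PND0 groups overlapped fully, and WT replicate 4 was the lowest and WT replicate 3 the highest of the 8 libraries. The differences were 0.31 (SE 0.09, adjusted p = 0.875), 0.40 (SE 0.07, adjusted p = 0.00113), 0.30 (SE 0.08, adjusted p = 0.240) and 0.08 (SE 0.19, adjusted p = 0.878). At PND0 the sign turned to -0.10 without WT replicate 4 and to -0.29 with the ribosomal RNA gene as a covariate. In WT, Hsd17b7 fell from 26.3 ± 2.18 to 20.9 ± 1.48 CPM between E12.5 and E14.5 (log2 fold change -0.35, adjusted p = 0.00524). Its rise from E16.5 to PND0 passed only without PND0 WT replicate 4 or in the fits without a filter or of all 32 libraries (0.58, 0.38 and 0.46).

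**Figure D3:**
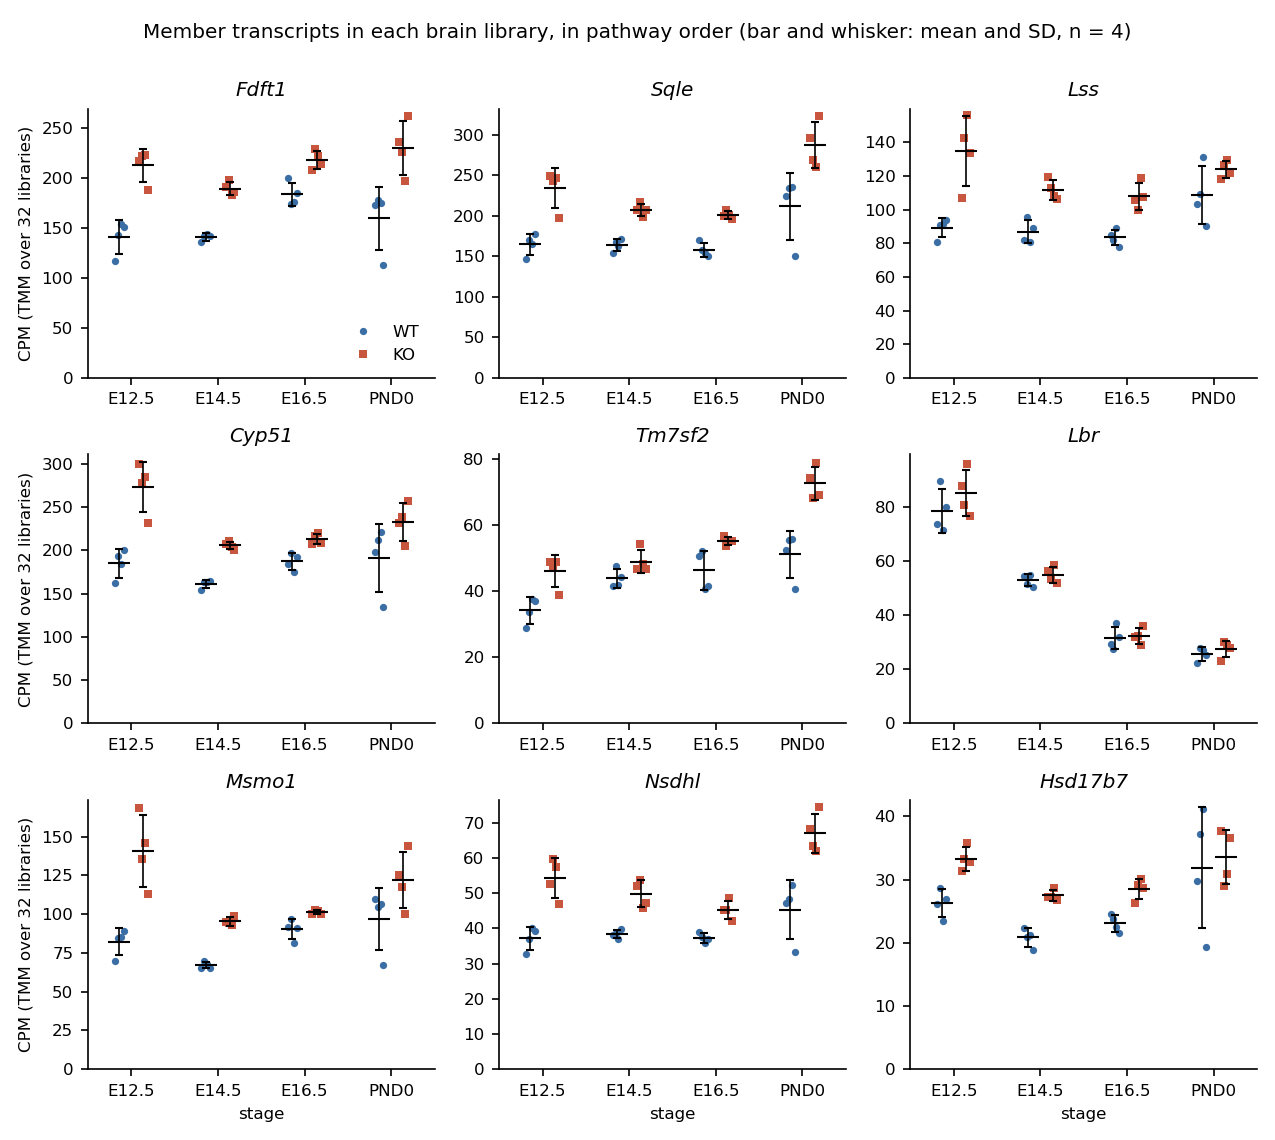
CPM of each member (vertical axis of each panel, from 0) by stage (horizontal axis) in each WT (circles) and KO (squares) library, with mean and SD of 4 libraries. Lbr falls from a WT mean of 78.5 CPM at E12.5 to 25.6 CPM at PND0 with the genotypes overlapping, and PND0 WT replicate 4 is the low circle in the Fdft1, Sqle, Cyp51 and Msmo1 panels.

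Per transcript length, the WT order of the members was broad. In CPM per kb of the principal transcript at E12.5, Sqle was highest at 59.9 ± 4.75 (SD, n = 4), followed by Cyp51 at 47.0 ± 4.26, Msmo1 at 40.2 ± 4.21 and Fdft1 at 38.1 ± 4.61. The lower members were Tm7sf2 at 23.3 ± 2.74, Lbr at 22.4 ± 2.31, Lss at 19.1 ± 1.23, Nsdhl at 17.2 ± 1.52 and Hsd17b7 at 5.70 ± 0.472 CPM per kb. The range of Sqle lay above that of Cyp51, whereas the ranges of Cyp51, Msmo1 and Fdft1 overlapped with their neighbour in the order, as did Tm7sf2 with Lbr and Lss with Nsdhl. At PND0 Sqle was still highest at 76.8 ± 14.9 CPM per kb and Hsd17b7 lowest at 6.91 ± 2.08, and Lbr, at 7.30 ± 0.730, had come down beside it. Tm7sf2 had moved to 34.8 ± 4.85 CPM per kb, between Fdft1 at 43.2 ± 8.52 and Lss at 23.3 ± 3.69. With the union of all annotated exons as length, Cyp51 (41.9 at E12.5) stood above Fdft1 (33.3) and Sqle (29.8). Lower down at E12.5, Lbr (16.48) then stood above Msmo1 (13.4), Nsdhl (13.04), Lss (8.27) and Tm7sf2 (7.79). At PND0 Lbr (5.38) was the lowest by this length, below Hsd17b7 (6.25). The order thus depends on the transcript model, at the top and below it.

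**Figure D4:**
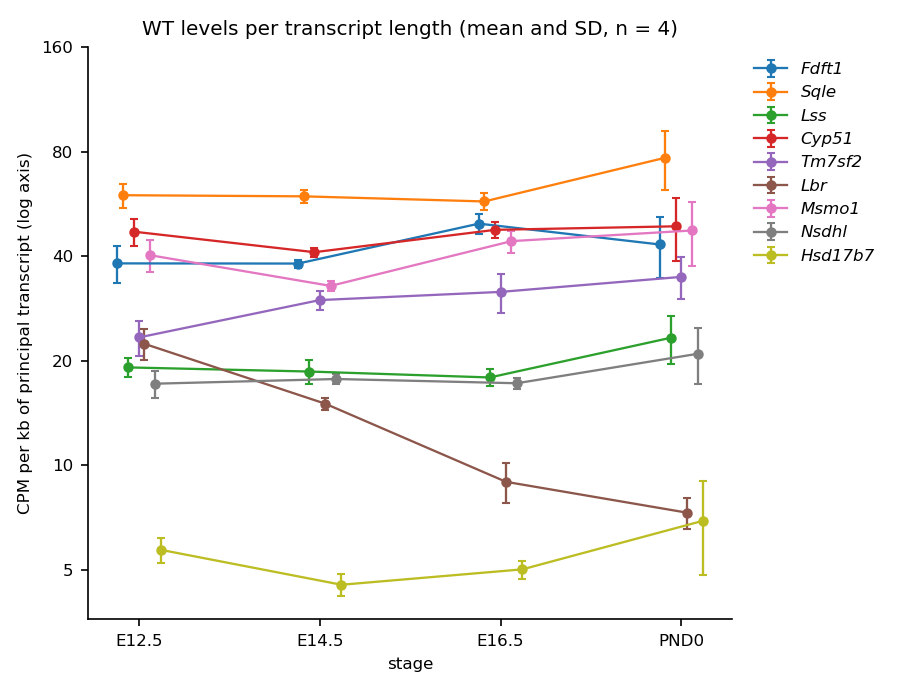
WT level of each member in CPM per kb of its principal transcript (vertical log axis) by stage (horizontal axis), as mean and SD of 4 libraries. Lbr goes from 22.4 to 7.30 CPM per kb, while Tm7sf2 goes from 23.3 to 34.8.

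Over the WT steps members moved in both directions, as all genes did. From E12.5 to E14.5, 1 of the 9 rose (Tm7sf2) and 4 fell (Cyp51, Lbr, Msmo1 and Hsd17b7), against 27.3% and 30.5% of all genes. From E14.5 to E16.5, 3 rose (Fdft1, Cyp51 and Msmo1) and Lbr fell, against 29.3% and 28.2%. From E16.5 to PND0, Sqle and Lss rose and Lbr fell, against 26.0% and 27.2%. From E12.5 to PND0, 3 rose (Sqle, Lss and Tm7sf2) and Lbr fell, against 34.5% and 36.4%. Of these, Tm7sf2 had the largest rise, from 34.3 ± 4.03 to 51.3 ± 7.13 CPM (log2 fold change 0.57, adjusted p = 0.00123). Without PND0 WT replicate 4 the number that rose from E12.5 to PND0 was 7, while 12473 of all 17935 genes were called in either direction. Sqle lost this call without E12.5 WT replicate 1 or 2 or PND0 WT replicate 1, 2 or 3 (adjusted p 0.0554 to 0.0900), and Lss without E12.5 WT replicate 1 or 2 or PND0 WT replicate 2 or 3 (0.0639 to 0.0877).

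The members deviated together within single libraries. PND0 WT replicate 4 was below the WT mean of its stage in all 9 members, with a median deviation of -0.47 on the log2 scale, against 0.08 to 0.18 in the other 3 PND0 WT libraries. Without this library the median KO difference at PND0 was 0.20 in place of 0.33, and Tm7sf2 (0.42, adjusted p = 0.0455) and Nsdhl (0.45, adjusted p = 0.0442) still passed. E12.5 KO replicate 4 had the lowest median deviation of its group, 0.33 against 0.52 to 0.62. E12.5 WT replicate 1 was below the WT mean in all 9 members, with a median of -0.18. In E14.5 KO libraries the medians lay between 0.31 and 0.39, and in E16.5 KO libraries between 0.19 and 0.28.

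**Figure D5:**
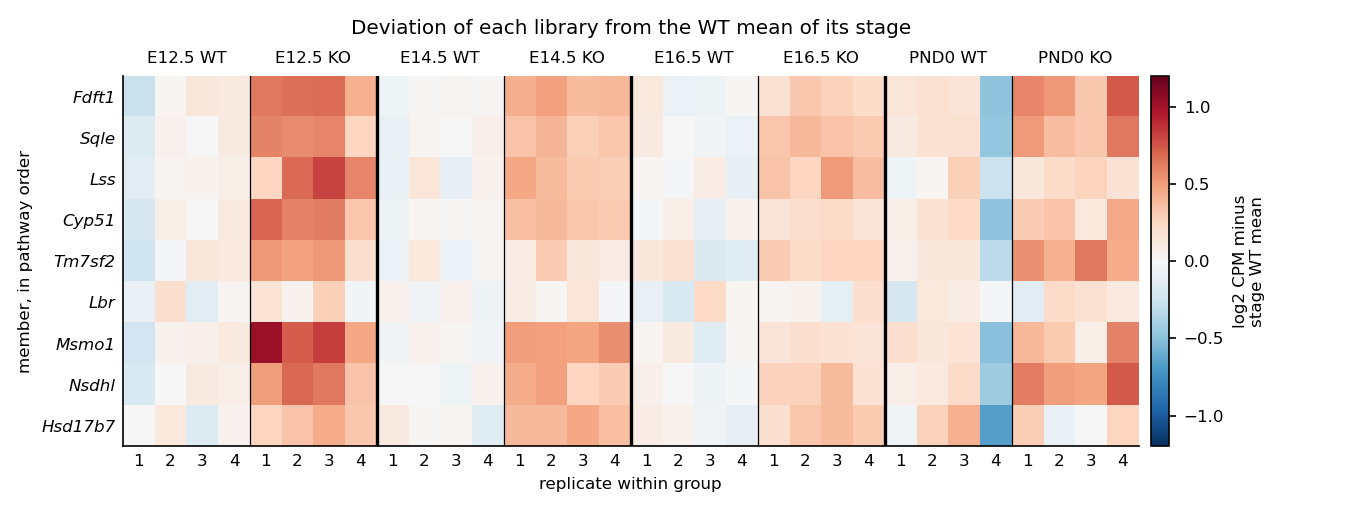
Log2 CPM of each member (rows, in pathway order) in each of the 32 libraries (columns, numbered within the 8 groups) minus the mean of the WT libraries of that stage, in colour from blue (lower) to red (higher). The KO columns are mostly red outside the Lbr row, and PND0 WT replicate 4 is a blue column with a median of -0.47.

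Across the 32 libraries, which share stage, genotype and depth as sources of variation, log2 CPM of 8 members correlated with the mean of the other members at r of 0.579 (Tm7sf2) to 0.919 (Sqle). Lbr did so at -0.157. After subtraction of the 8 group means the r of these 8 ran from 0.478 (Lss) to 0.935 (Sqle), and that of Lbr was 0.0445. Among 16053 genes that averaged 1 CPM or more, non-members near to the mean of the 9 members in log2 CPM were Insig1 (r = 0.883), Acat2 (0.841), Hmgcs1 (0.8292) and Mvd (0.8289). In deviations from the group means near genes were Hmgcs1 (0.901), Hspa8 (0.866), Acat2 (0.856) and Zfp946 (0.835). For single members the nearest gene in log2 CPM was Sc5d for Fdft1 (0.830), Hmgcs1 for Sqle (0.930) and Nsdhl (0.901), Acat2 for Cyp51 (0.925) and Msmo1 (0.902), Aacs for Tm7sf2 (0.914) and Rdx for Lbr (0.983). These correlations are descriptions, with no test.

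Upstream in the route, the 8 enzymes from acetyl-CoA to farnesyl diphosphate gave 0, 5, 1 and 2 calls higher in KO in order of stage and none lower, with median differences of 0.50, 0.33, 0.29 and 0.39. Hmgcs1, which makes HMG-CoA, differed by 0.78 at E12.5 (adjusted p = 0.264) and was higher by 0.48 at E14.5 (adjusted p = 2.71e-14). Mvd, mevalonate diphosphate decarboxylase, was higher by 0.51 at E16.5 (adjusted p = 0.0340) and 0.79 at PND0 (adjusted p = 0.0111). Averaged over the stages, 7 of these 8 and 8 of the 9 members were higher.

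The proteins that work with the member enzymes did not give calls. Of 8 redox and protein partners (Por, Cyb5a, Cyb5b, Cyb5r3, Pgrmc1, Erg28, Marchf6 and Sec14l2), 0 passed at any stage by edgeR, with medians of 0.12, -0.02, 0.05 and 0.07. At an unadjusted p under 0.05 there were 0, 1, 2 and 4 in order of stage, against 4.70%, 8.73%, 11.5% and 18.0% of all genes. Por, the reductase that passes electrons to Cyp51 and Sqle, differed by 0.17 at E16.5 (adjusted p = 0.305) and by 0.15 on average (adjusted p = 0.0638). Of 7 nuclear lamina genes around the other role of Lbr (Lmna, Lmnb1, Lmnb2, Emd, Tmpo, Banf1 and Cbx5), 0 passed in KO against WT at any stage, with 0, 0, 1 and 1 at an unadjusted p under 0.05, to be read against the same shares. In WT from E12.5 to PND0, 6 of these 7 fell, as Lbr did, with a median of -1.20, against 36.4% of all genes that fell.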

How the data were processed

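The deposited values were raw read counts per gene, in 1 table per stage, and the submitters' processing notes name HISAT2, SAMtools, featureCounts, DESeq2 and the mm10 build without their roles. Libraries were poly(A) selected and read as pairs on an Illumina NovaSeq, per the labels' protocols. The strand setting and the treatment of reads in shared exons are not given in the sources used here. From the counts, edgeR 4.0.16 (R 4.3.3, limma 3.58.1) was run with TMM scaling, filterByExpr (minimum count 10, minimum total 15) and robust quasi-likelihood tests, on 8 libraries for each KO or WT step comparison and on all 32 for the averaged KO effect and the interaction with stage. The 10 comparisons were each adjusted by Benjamini-Hochberg over all genes tested. CPM levels were scaled by TMM over the 32 libraries, and levels per kb used the principal transcript of GENCODE M21. No 2 libraries of a group agreed within sampling noise (48 pairs, chi-square per degree of freedom 2.90 to 115). The scripts were tested on simulated data. Alternatives were RLE size factors, no filter, each library left out, a replicate block, DESeq2 1.42.0, a single fit of all libraries, and covariates for transcript length, sex genes and a ribosomal RNA gene. By rule, the text names the 9 members, Dhcr7, at most the 2 genes with the smallest p in each other list, and the genes nearest by correlation (5 for the mean of the members, 1 for each member). Some results that this rule would name are not reported here. The members and lists were chosen with earlier results of these data known.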

Additional observations from a re-analysis of the deposited data

Results flagged for a closer look

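In 7 of 72 groups of 4 libraries (9 members in 8 groups), 1 library stood far from the other 3. For a single group chance gives about 1 in 20. The members deviated together within libraries, so the 72 are not separate draws and the 7 cannot be set against that share. The measure is the gap to the nearest library as a share of the group's range. In PND0 WT replicate 4 this was so for Fdft1 (0.923, at 113 CPM against 173 to 178), Sqle (0.872, at 151 against 225 to 236) and Msmo1 (0.884, at 66.9 against 105 to 109.6). In E12.5 KO replicate 4 it was so for Fdft1 (0.839, at 188 CPM against 217 to 223), Sqle (0.8999, at 198 against 244 to 249) and Tm7sf2 (0.866, at 38.9 against 47.7 to 49.1). In E14.5 WT replicate 1 it was so for Cyp51 (0.912, at 154 CPM against 163 to 164). All 7 were the lowest library of their group.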

How the results depend on the processing

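Of 1670 values of single genes under alternatives, 1535 kept their direction and side of the threshold, 70 lost a call, 43 gained one and 22 turned sign. The cause of the changes below was not tested. Members higher in KO at E12.5 numbered 0, but 6 by DESeq2, 6 in the single fit of 32 libraries, 1 with the ribosomal RNA covariate and 0 to 1 with a library left out. At E14.5 the 7 became 0 in the single fit. At E16.5 the 1 became 4 without a filter, 4 by DESeq2, 2 with length offsets, 0 with the sex-gene covariate, 0 in the single fit and 0 to 1 with a library left out. Its median of 0.25 was 0.30 with the ribosomal RNA covariate and 0.22 to 0.29 with a library left out. At PND0 the 2 became 6 without a filter, 4 by DESeq2, 4 with the sex-gene covariate, 4 in the single fit, 0 with length offsets, 0 with the ribosomal RNA covariate and 0 to 2 with a library left out.

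Deviations of same-numbered KO and WT libraries from their group means correlated weakly and in both directions (r from -0.278 to 0.305). Such correlations cannot show whether the numbers mark pairs, and the labels give no litter. With the replicate block, the count at E16.5 was 0 (Sqle, adjusted p = 0.0725) and Hsd17b7 did not pass on average (adjusted p = 0.0902). With that block 2 members (Fdft1 and Lbr) fell in WT from E16.5 to PND0 in place of 1.

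In WT from E16.5 to PND0, 2 members (Fdft1 and Lbr) fell without a filter and 0 to 1 with a library left out. Over the same step 4 rose in the single fit and 1 to 4 with a library left out. From E12.5 to PND0, 1 rose without a filter and 1 to 7 with a library left out. The 7 came without PND0 WT replicate 4, where 12473 of all 17935 genes were called in either direction. The E12.5 difference in the Tm7sf2 to Lbr log2 ratio was 0.24 to 0.41 with a library left out.

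Sign changes were all in values that did not pass. With the ribosomal RNA covariate Lbr was -0.013 at E16.5 and Hsd17b7 -0.29 at PND0. In WT, Fdft1 from E12.5 to E14.5 was 0.0029 with RLE and 0.0042 by DESeq2, and Cyp51 was 0.033 from E16.5 to PND0 in the single fit and -0.018 from E12.5 to PND0 without a filter. With a library left out, ranges were -0.025 to 0.12 (Lbr, E16.5 KO), -0.097 to 0.23 (Hsd17b7, PND0 KO), -0.085 to 0.031 (Fdft1), -0.065 to 0.0051 (Sqle) and -0.015 to 0.069 (Nsdhl) for WT from E12.5 to E14.5, -0.10 to 0.11 (Cyp51) and -0.018 to 0.19 (Msmo1) from E16.5 to PND0, and -0.026 to 0.19 (Cyp51) from E12.5 to PND0.

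Counts over all genes moved too. At E12.5, 3 genes were called, against 30 by DESeq2, 52 in the single fit and 6 with the replicate block. At E14.5 they were 94 against 146 without a filter and 4 in the single fit, and at E16.5, 8 against 233 without a filter, 168 by DESeq2 and 3 in the single fit. At PND0 they were 70 higher and 180 lower, against in all 1091 without a filter, 921 by DESeq2, 1205 in the single fit, 62 with length offsets and 2 with the ribosomal RNA covariate. At E16.5 they were also 5 with the replicate block and 4 with the sex-gene covariate. The averaged effect called 109 genes, against 72 without a filter, and the interaction 5, against 11 without a filter and 0 with the replicate block. With 1 library left out, the counts in order of stage ran from 1 to 5, 52 to 155, 3 to 14 and 35 to 263. At PND0 the low counts were 35 and 62 (WT replicates 3 and 1 left out) and 38 and 95 (KO replicates 1 and 2 left out). They ran from 63 to 256 for the averaged effect and from 0 to 797 for the interaction, with 797 without E12.5 KO replicate 1 and 36 without E12.5 WT replicate 3. Hsd17b7 in E14.5 KO had a spread of 2.96% of its mean, against a counting error of 4.155%. In every other group its spread was above the counting error, most in PND0 WT (30.03% against 4.265%). Whether depth limits the member results was not tested.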
